A study of Mus musculus with 5 samples.

Results

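The 36 genes described here mark cells of the heart other than cardiomyocytes, and they were followed in RNA from sorted cardiomyocyte nuclei. They were chosen by symbol, as 10 endothelial, 13 macrophage and leukocyte, 5 T and B cell and 8 fibroblast markers, and all 36 are among the 41128 genes of the per-library table. The nuclei came from FVB mice aged 8 weeks whose left anterior descending coronary artery had been tied off for good, and the hearts were taken 7 days later. The border zone group, the muscle beside the infarct, holds 3 libraries, from mice 32, 34 and 40, and the remote group, muscle away from the infarct, holds 2, from mice 40 and 43. Every library came from an infarcted heart, so the remote muscle is not that of an uninjured animal. Nuclei of both regions were stained for PCM-1 and sorted by flow cytometry, and cDNA was made from 500 pg of input. The labels name 4 animals, 1 of which, mouse 40, gave both regions.

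PCM-1 is a protein of the centrosomal satellites that gathers around the nuclear envelope when muscle cells mature, and antibodies to it are used to pick cardiomyocyte nuclei out of a heart suspension. A heart also holds endothelial cells, fibroblasts, resident macrophages, mural cells and a few lymphocytes, and after coronary ligation the injured wall fills with leukocytes and activated fibroblasts. Genes that those cells use and cardiomyocytes do not are therefore a check of how clean such a sort is. In bulk RNA, fewer nuclei of a type and less RNA per nucleus cannot be told apart.

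Values are normalized reads, that is, reads per gene divided by the size factor of the library. The libraries held 11324539 to 25014205 reads, with the 3 border zone libraries deeper than both remote ones, and the border zone libraries nevertheless listed fewer genes. At the depth of the shallowest library, 15843, 18288 and 19602 genes were expected in border zone mice 32, 34 and 40, against 22670 and 22386 in remote mice 40 and 43. Of all genes in the table, 33.1% had no read in any library. Pcm1, the gene of the sorting antigen, had 460, 404 and 639 normalized reads in the border zone of mice 32, 34 and 40, against 938 and 805 in remote mice 40 and 43. All 3 border zone libraries lay below both remote ones for Pcm1, with a log2 change of -0.82 ± 0.50 (SE) that did not pass (limma adjusted p = 0.394).

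The non-cardiomyocyte markers were present in all libraries at a low level. Per kilobase of transcript and averaged over the libraries, the highest member was Cd68, at 62.2 normalized reads per kilobase. All 22 genes of a cardiomyocyte list lay above it, from Tecrl at 140.4 to Tnnt2, cardiac troponin T, at 61445 normalized reads per kilobase. That gap holds for the 36 members only. Among the further marker lists described below, most genes lay under Tecrl. Some lay above it, such as Cspg4 (694.5), Blk (559.9), Abcc9 (288.7) and Col1a1 (269.0 per kilobase). Whether the reads of these genes came from cardiomyocyte nuclei or from others was not tested. The summed reads of the 36 members came to 37.5, 81.3 and 101 RPM (reads per 1000000 reads) in border zone mice 32, 34 and 40, against 136 and 201 RPM in remote mice 40 and 43. The cardiomyocyte list took 173240, 140970 and 142270 RPM in the border zone libraries and 166290 and 140310 in the remote ones. As a share of reads, the 36 members together thus lay lower in each border zone library than in either remote one, while the cardiomyocyte list overlapped between the regions on that scale. Of that list the authors' deposited table called Rbm20, a splicing factor of titin, higher in the border zone (log2 2.01, adjusted p = 0.0499). In normalized reads the same sums were 1488, 2105 and 1486 in the border zone, against 1382 and 1664 in remote muscle, and overlapped. The cardiomyocyte sums on that scale were 6867900, 3650100 and 2084300 in the border zone, all above the 1687200 and 1161400 in remote muscle. Which of these sums parted the regions therefore differed between the scales.

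**Figure D1:**
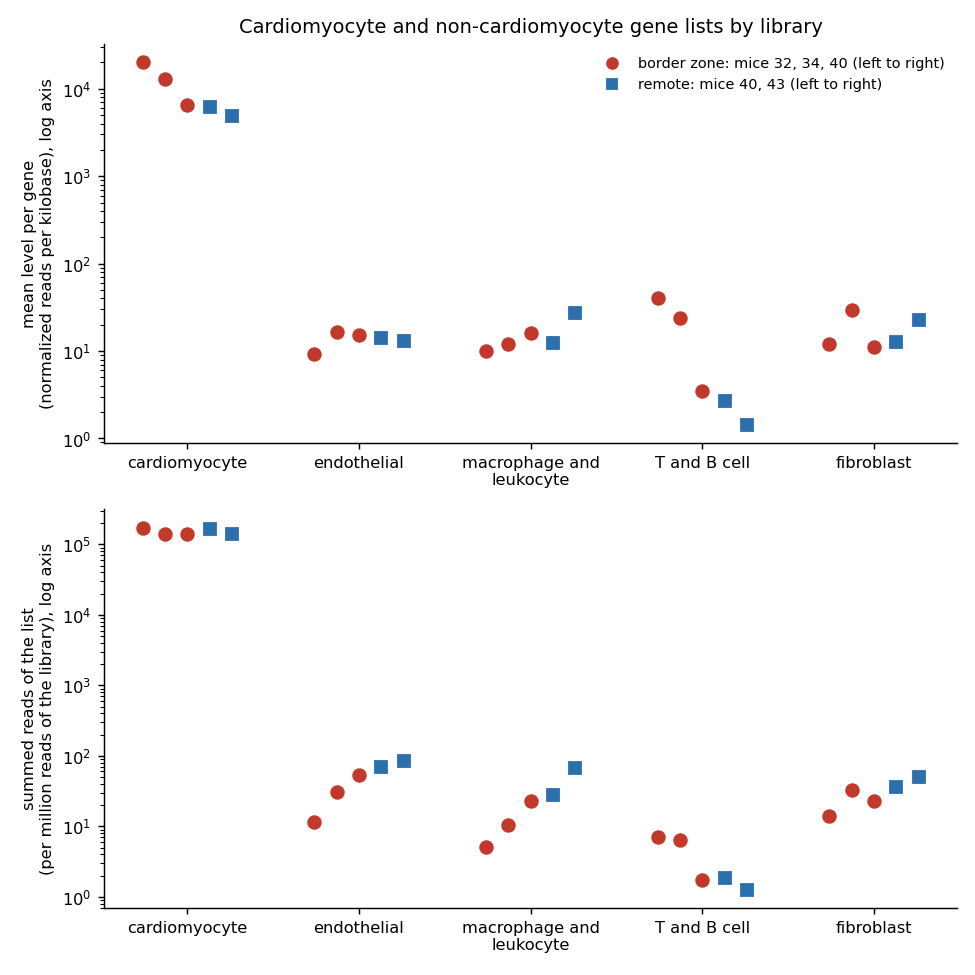
Levels of the cardiomyocyte list and the 4 non-cardiomyocyte groups in each library, as the mean normalized reads per kilobase of a gene (upper panel) and as summed reads in RPM (lower panel), both on log axes. Red circles are border zone mice 32, 34 and 40 and blue squares are remote mice 40 and 43, left to right. The non-cardiomyocyte groups sit at or below 40.8 per kilobase, against at least 4823 for the cardiomyocyte list.

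The mean level per kilobase of the endothelial members was 0.0459%, 0.126% and 0.234% of that of the cardiomyocyte list in border zone mice 32, 34 and 40, and 0.228% and 0.271% in remote mice 40 and 43. For the macrophage and leukocyte members it was 0.0501%, 0.0916% and 0.245% in the border zone, against 0.197% and 0.558% in remote muscle. The fibroblast members stood at 0.0593%, 0.229% and 0.167% in the border zone and at 0.203% and 0.468% in remote muscle. The T and B cell members, by their means, had 0.202%, 0.182% and 0.0534% in the border zone and 0.0434% and 0.0297% in remote muscle, while their medians were 0 in all libraries but border zone mouse 34. The cardiomyocyte mean by which these shares divide was itself 20173, 13057 and 6597 per kilobase in border zone mice 32, 34 and 40, against 6202 and 4823 in remote mice 40 and 43. The undivided endothelial means overlapped, at 9.27, 16.5 and 15.4 per kilobase in the border zone and 14.1 and 13.1 in remote muscle. Taken from medians in place of means, the shares in border zone mouse 40 were 0.207% for endothelial, 0.0972% for macrophage and leukocyte and 0.179% for fibroblast members, below the 0.428%, 0.257% and 0.364% in remote mouse 40. By medians the endothelial and the macrophage and leukocyte shares lay lower in every border zone library than in either remote one. The fibroblast shares overlapped, with 0.411% in border zone mouse 34.

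Fewer members were detected in each border zone library than in either remote one, as was so of all genes at equal depth. Border zone mice 32, 34 and 40 had at least 1 read for 25, 30 and 28 of the 36 members, against 31 and 31 in remote mice 40 and 43. At equal depth, 23.2, 28.4 and 27.3 members were expected in the border zone libraries and 30.7 and 31 in the remote ones. With 10 or more reads there were 19, 23 and 21 members in the border zone and 25 and 28 in remote muscle. Reads were found in all 5 libraries for 21 members, in some libraries for 12 and in none for 3 (Cd14, Cd3g and Cd79b). A count of 0 allows a normalized level of up to 4.75, 3.69 and 2.35 in border zone mice 32, 34 and 40 and up to 2.26 and 2.19 in remote mice 40 and 43, taking 3 reads as the floor and counting error only.

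**Figure D2:**
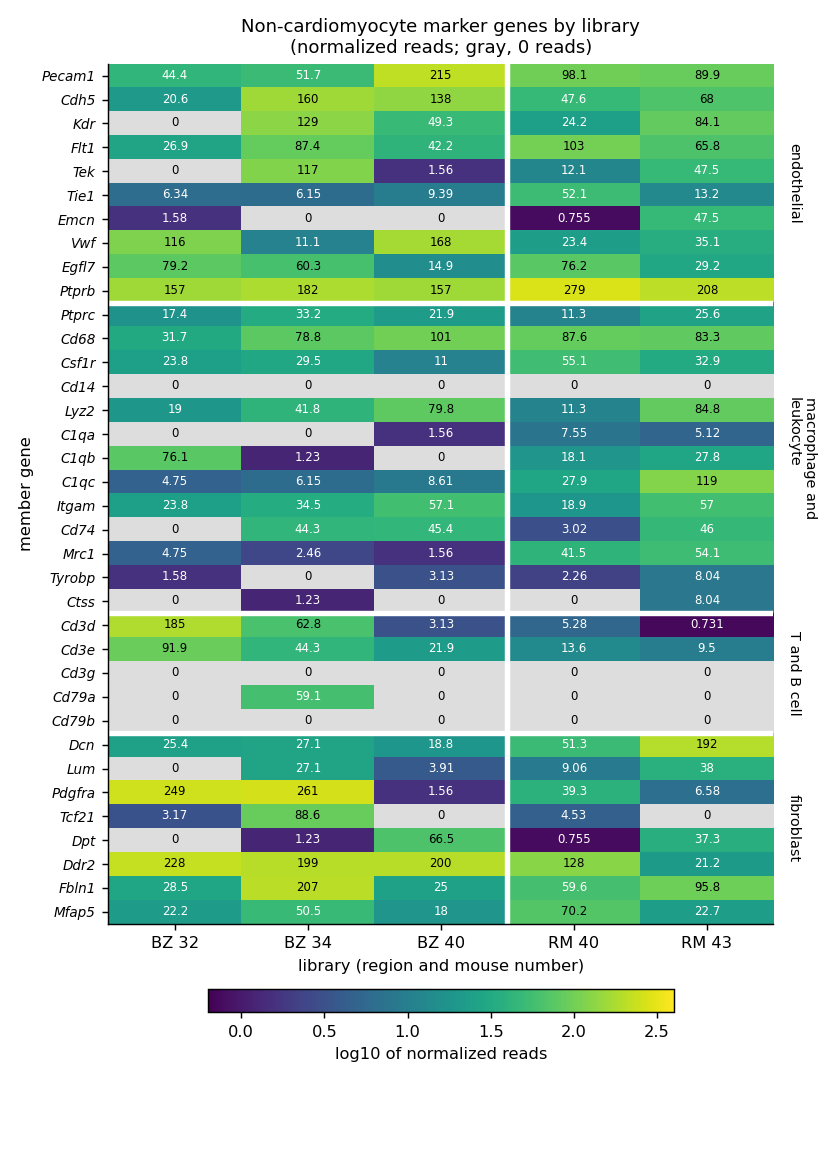
Normalized reads of the 36 members in each library, colored by their log10, with border zone (BZ) mice 32, 34 and 40 left of remote (RM) mice 40 and 43. Gray cells hold 0 reads. Most rows do not part the regions, and several have their high value in a lone library, such as Cd79a at 59.1 in BZ 34.

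The main test compared border zone with remote muscle by limma on log2(normalized reads + 1), over the 14989 genes with a mean of at least 10, of which 29 are members. By limma, 0 members passed at adjusted p under 0.05, beside 0% of all tested genes, and edgeR on the recovered reads also called 0 members, with 4 at an unadjusted p under 0.05, beside 16% of genes. At an unadjusted limma p under 0.05 there were 3 members, beside 18.1% of all tested genes, namely Mrc1 and C1qc with lower values in the border zone (beside 7.87% of genes) and Ddr2 with higher ones (beside 10.2%). The authors' deposited table gave an adjusted p for 30 members and called 3 of them at adjusted p under 0.05, beside 5.44% of its 16592 genes. Mrc1 and C1qc were lower in the border zone (2 members, beside 1.98% of genes called lower) and Cd3d was higher (1 member, beside 3.46% called higher). Border zone and remote values stood clear of each other in 8 of the 29 tested members, beside 39.2% of all tested genes. Of those 8, Cd3e and Ddr2 lay higher in the border zone (beside 18.9% of genes), and Tie1, Ptprb, Csf1r, C1qc, Mrc1 and Dcn lay lower (beside 20.3%). With both directions together, the members' shares by unadjusted p and by overlap were under those of all genes, and their share in the authors' deposited table was above. The 6 of 29 members that lay lower without overlap were close to the 20.3% of all genes. These differences were not tested.

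The 29 tested members had a median log2 change of -0.43, with 11 positive, beside a median of -0.21 and 45% positive over all tested genes. The medians were -0.54 for the 9 tested endothelial members, -0.43 for the 9 tested macrophage and leukocyte members, 1.97 for the 3 tested T and B cell members and -0.52 for the 8 fibroblast members. Libraries of the same region differed widely for these genes. Their median SD within a region was 1.16 on the log2 scale, beside 0.94 for all tested genes and 0.54 for the cardiomyocyte list, and the members' median level was 38.2 normalized reads, beside 88.4 for all tested genes. Scaling by total reads shifted the median over all tested genes by -1.37 (log2), and scaling by summed cardiomyocyte list reads by -1.36.

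**Figure D3:**
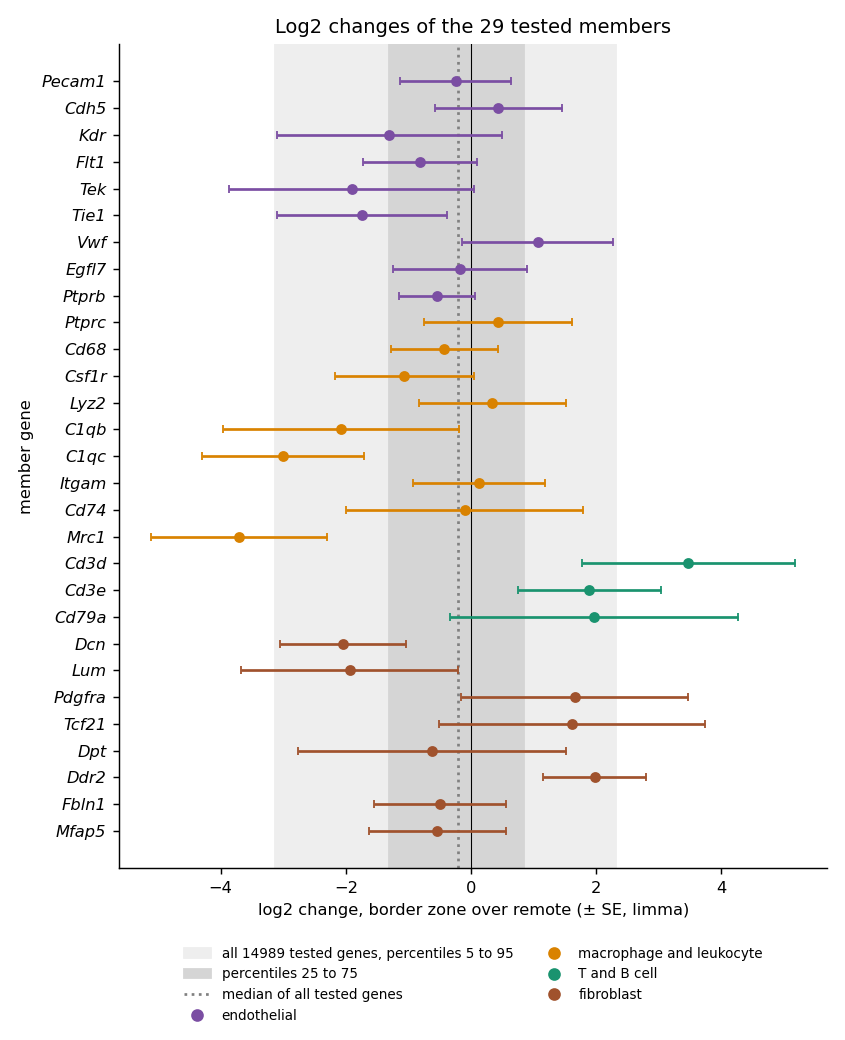
Log2 changes, border zone over remote, of the 29 tested members with their SE, colored by cell type. The gray bands hold the 5th to 95th and the 25th to 75th percentiles of all tested genes and the dotted line their median of -0.21. Mrc1 (-3.71) and Cd3d (3.47) lie outside the outer band, and all other tested members lie inside it.

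The members that the authors' deposited table called are shown here with the sequence around their start sites, as the only members called there. The windows run from 250 bases before to 50 after the annotated start and come from RefSeq (GRCm38.p6), 5′ to 3′ on the gene's strand. Capitals mark GAGGAA or its reverse complement TTCCTC, letters at the core of sites bound by PU.1, a blood-cell factor of the ETS family.
Mrc1 (chr2:14229164-14229463, plus strand): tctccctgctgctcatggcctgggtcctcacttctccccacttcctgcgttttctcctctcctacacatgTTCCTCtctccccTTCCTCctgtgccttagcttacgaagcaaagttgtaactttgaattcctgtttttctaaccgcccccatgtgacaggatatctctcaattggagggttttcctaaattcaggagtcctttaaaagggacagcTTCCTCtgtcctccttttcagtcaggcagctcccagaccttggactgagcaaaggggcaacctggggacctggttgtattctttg
C1qc (chr4:136892865-136893164, minus strand): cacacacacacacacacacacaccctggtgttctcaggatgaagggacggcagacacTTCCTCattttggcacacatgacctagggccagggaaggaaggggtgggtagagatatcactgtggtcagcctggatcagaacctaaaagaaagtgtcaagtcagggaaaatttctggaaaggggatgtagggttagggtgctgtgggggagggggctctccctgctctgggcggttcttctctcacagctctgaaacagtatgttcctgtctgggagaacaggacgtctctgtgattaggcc
Cd3d (chr9:44981536-44981835, plus strand): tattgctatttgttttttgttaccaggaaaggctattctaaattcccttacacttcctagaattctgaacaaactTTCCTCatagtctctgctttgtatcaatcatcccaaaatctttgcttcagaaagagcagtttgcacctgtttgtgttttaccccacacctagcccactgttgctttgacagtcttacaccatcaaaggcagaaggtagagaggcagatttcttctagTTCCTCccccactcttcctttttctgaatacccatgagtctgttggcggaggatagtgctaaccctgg
The Mrc1 window held 3 matches, the C1qc window 1 and the Cd3d window 2. Either orientation was found in 28.3% of the 32851 windows in the table. The 23 members with a window had 27 windows, and 15 of these members held a match in at least 1 window. They were 7 of 8 macrophage and leukocyte, 3 of 4 T and B cell, 4 of 6 endothelial and 1 of 5 fibroblast members. These counts are of genes and the 28.3% is of windows, so the shares are not directly comparable. A match is a run of letters and not a measured site.

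Macrophage and leukocyte markers held the most negative log2 changes among the 29 tested members, those of Mrc1 and C1qc. Mrc1 (ENSMUSG00000026712, mm10 chromosome 2, 14229392 to 14332057, plus strand), the mannose receptor of resident, tissue-repair macrophages, had 4.75, 2.46 and 1.56 normalized reads in the border zone of mice 32, 34 and 40, against 41.5 and 54.1 in remote mice 40 and 43. All border zone libraries lay below both remote ones, with 3, 2 and 2 reads in mice 32, 34 and 40. Those counts are at or below the floor of 3 reads, so the size of the change is poorly measured. Mrc1 averaged 2.93 ± 1.65 over the border zone libraries (SD, n = 3) and 47.8 ± 8.89 over the remote ones (SD, n = 2). Its log2 change was -3.71 ± 1.40 (SE, limma adjusted p = 0.215), and -4.10 in the authors' deposited table (adjusted p = 0.0233). Within mouse 40 alone the log2 change was -4.05. DESeq2 on the recovered reads gave Mrc1 an adjusted p of 0.0899 without border zone mouse 34, 0.0406 without mouse 32 and 0.0433 without border zone mouse 40, and none without either remote library. With mice 40 and 43 only it was 0.0724, in a fit that called 2.15% of genes. The fits without border zone mice 32 and 34 called 3.32% and 2.92% of genes, and those without remote mice 40 and 43 called 4.06% and 0.279%.

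The 3 genes of complement C1q, whose chains join into the molecule that starts the classical complement pathway, are expressed mainly by macrophages and lie within 12.6 kilobases of each other on chromosome 4. C1qc (ENSMUSG00000036896, mm10 chromosome 4, 136889804 to 136893065, minus strand) had 4.75, 6.15 and 8.61 normalized reads in the border zone of mice 32, 34 and 40, against 27.9 and 119 in remote mice 40 and 43. The regions did not overlap, with averages of 6.504 ± 1.95 over the border zone libraries (SD, n = 3) and 73.5 ± 64.5 over the remote ones (SD, n = 2). The border zone values rest on 3, 5 and 11 reads in mice 32, 34 and 40. The log2 change of C1qc was -3.01 ± 1.29 (SE, limma adjusted p = 0.253), and the authors' deposited table gave -3.48 (adjusted p = 0.0340). DESeq2 gave C1qc adjusted p of 0.0833 and 0.1 without border zone mice 32 and 34. Without border zone mouse 40 it was 0.022, in a fit that called 16.2% of genes. The DESeq2 log2 changes without border zone mouse 32, border zone mouse 34 and remote mouse 40 were -3.26, -3.43 and -4.18. The limma value was -1.98 without remote mouse 43, and the difference between the regions of mouse 40 alone was -1.59. C1qa had 0, 0 and 1.56 normalized reads in the border zone and 7.55 and 5.12 in remote muscle, and was under the level tested. C1qb did not follow its neighbors. It had 76.1, 1.23 and 0 in border zone mice 32, 34 and 40, against 18.1 and 27.8 in remote mice 40 and 43, so that border zone mouse 32 held both the highest C1qb value and a C1qa value of 0.

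**Figure D4:**
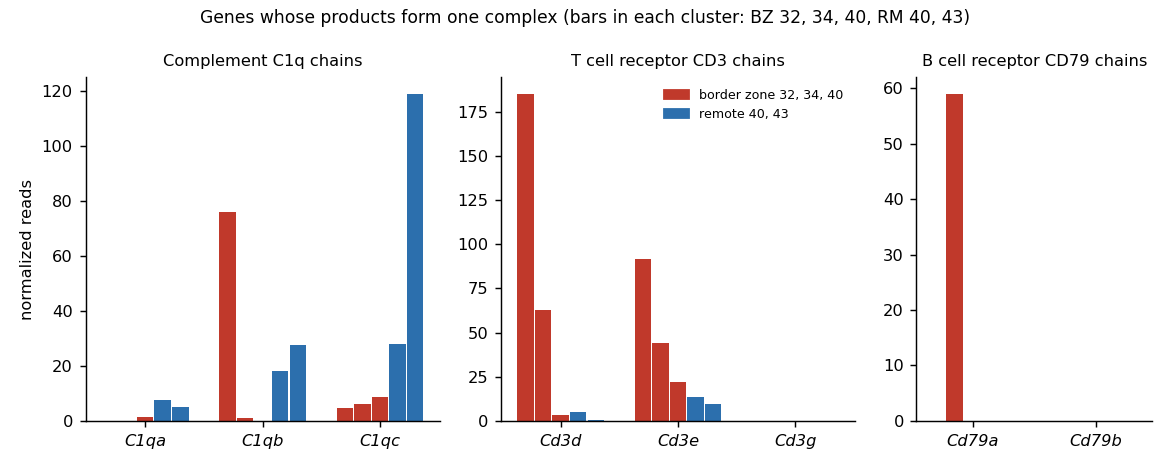
Normalized reads of the genes of the C1q, CD3 and CD79 complexes, with bars for border zone mice 32, 34 and 40 (red) and remote mice 40 and 43 (blue) in each cluster. Cd3d reaches 185 where Cd3g is at 0, and Cd79a is at 59.1 where Cd79b is at 0.

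Of the broad macrophage and leukocyte markers, most overlapped between the regions. Cd68, a lysosomal glycoprotein and the most abundant member per kilobase, had 31.7, 78.8 and 101 normalized reads in the border zone of mice 32, 34 and 40, against 87.6 and 83.3 in remote mice 40 and 43. Itgam, an integrin chain of monocytes and neutrophils, had 23.8, 34.5 and 57.1 in the border zone and 18.9 and 57.0 in remote muscle. The values overlapped in both cases, with log2 changes of -0.43 ± 0.86 for Cd68 and 0.13 ± 1.06 for Itgam (SE, limma adjusted p = 0.809 and 0.957). Ptprc, the CD45 phosphatase carried by all leukocytes, had 17.4, 33.2 and 21.9 in the border zone and 11.3 and 25.6 in remote muscle. Csf1r, the receptor for macrophage colony-stimulating factor, had 23.8, 29.5 and 11.0 in the border zone, below the 55.1 and 32.9 in remote muscle. Its locus overlaps by 873 bases, on the other strand, with Hmgxb3, which averaged 924 normalized reads, and reads of such a pair may be shared where counting ignores strand.

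Lyz2, the macrophage lysozyme, ranged from 19.0 to 79.8 in the border zone and stood at 11.3 and 84.8 in the remote libraries. Its close copy Lyz1 ranged from 0 to 17.2 in the border zone and stood at 5.28 and 21.9 in remote muscle, and reads may be split between the copies. Cd74, the invariant chain of antigen presentation, was at 0, 44.3 and 45.4 in border zone mice 32, 34 and 40, and at 3.02 and 46.0 in remote mice 40 and 43. Lyz2 and Cd74 thus each had a low and a high library in both regions. Cd14, a co-receptor for bacterial lipopolysaccharide, was at 0 throughout. Tyrobp, a signaling adaptor of myeloid cells, and Ctss, a lysosomal protease, did not exceed 8.04 in any library.

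T and B cell markers were the one group with a positive median, which rested on Cd3d, Cd3e and a single library for Cd79a. Cd3d (ENSMUSG00000032094, mm10 chromosome 9, 44981786 to 44987339, plus strand), the delta chain of the T cell receptor complex, had 185, 62.8 and 3.13 normalized reads in the border zone of mice 32, 34 and 40, against 5.28 and 0.731 in remote mice 40 and 43. Border zone mice 32 and 34 were high, and border zone mouse 40 lay between the remote libraries. Cd3d averaged 83.8 ± 93.0 over the border zone libraries (SD, n = 3) and 3.01 ± 3.22 over the remote ones (SD, n = 2). Its log2 change was 3.47 ± 1.71 (SE, limma adjusted p = 0.304), and 4.80 in the authors' deposited table (adjusted p = 0.0273). Within mouse 40 the log2 change of Cd3d was -0.61. DESeq2 lost the call without border zone mouse 32 (adjusted p = 0.222), without remote mouse 40 (adjusted p = 0.051) and without remote mouse 43 (adjusted p = 0.598), with log2 changes of 3.53, 6.82 and 3.96.

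Cd3e, the epsilon chain, had 91.9, 44.3 and 21.9 normalized reads in the border zone of mice 32, 34 and 40, against 13.6 and 9.502 in remote mice 40 and 43. Its regions did not overlap, and its log2 change was 1.89 ± 1.14 (SE, limma adjusted p = 0.396). Cd3g, the gamma chain, starts 1355 bases from Cd3d in the opposite direction and was at 0 in all libraries. Other T cell genes varied. Bcl11b, a transcription factor of T cell commitment, had 15.8, 33.2 and 25.04 in the border zone, below the 49.1 and 116 in remote muscle (log2 change -1.63 ± 1.01, SE, limma adjusted p = 0.406). Lck, the kinase that relays the receptor signal, and Cd2 had no read in border zone mouse 32, where Cd3d was highest, and Lck did not exceed 0.755 in any library. Cd4 had 50.7, 36.9 and 7.04 in the border zone and 2.26 and 2.92 in remote muscle (log2 change 2.81, limma adjusted p = 0.325). Of the B cell receptor pair, Cd79a had 59.1 in border zone mouse 34 and 0 in the other 4 libraries, and Cd79b was at 0 in all 5.

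No endothelial marker passed the test. The 9 tested members had log2 changes of -1.91 (Tek) to 1.06 (Vwf), and the smallest limma adjusted p was 0.505, that of Tie1. Ptprb, the vascular endothelial protein tyrosine phosphatase, had 157, 182 and 157 normalized reads in the border zone of mice 32, 34 and 40, against 279 and 208 in remote mice 40 and 43. It was the steadiest of the 29 tested members, with an SD within regions of 0.20 on the log2 scale, and lay lower in every border zone library (log2 change -0.54 ± 0.60, SE, limma adjusted p = 0.649). Tie1, an orphan receptor of vessel stability, had 6.34, 6.15 and 9.39 in the border zone, below the 52.1 and 13.2 in remote muscle.

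Pecam1, the junctional adhesion protein CD31, had 44.4, 51.7 and 215 normalized reads in the border zone of mice 32, 34 and 40, against 98.1 and 89.9 in remote mice 40 and 43. Cdh5, the cadherin of endothelial junctions, had 20.6, 160 and 138 in the border zone and 47.6 and 68.0 in remote muscle. For both genes the remote libraries lay inside the range of the border zone. Among the receptors for vascular endothelial growth factor, Kdr had 0, 129 and 49.3 in the border zone and 24.2 and 84.1 in remote muscle. Flt1, the decoy-like receptor of that pair, had 26.9, 87.4 and 42.2 in the border zone and 103 and 65.8 in remote muscle. Tek, the angiopoietin receptor, had 0, 117 and 1.56 in the border zone and 12.1 and 47.5 in remote muscle. Kdr and Tek were thus both at 0 in border zone mouse 32 and both highest in border zone mouse 34.

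Vwf, the clotting glycoprotein of endothelial storage granules, had 116, 11.1 and 168 normalized reads in the border zone of mice 32, 34 and 40, against 23.4 and 35.1 in remote mice 40 and 43. Egfl7, a secreted endothelial factor, had 79.2, 60.3 and 14.9 in the border zone and 76.2 and 29.2 in remote muscle. The order of the border zone libraries differed between these genes and from that of Kdr and Tek. Emcn, the sialomucin endomucin, had 1.58, 0 and 0 in the border zone and 0.755 and 47.5 in remote muscle, a mean just under the level tested, and its high value was that of remote mouse 43. The authors' deposited table gave Emcn a log2 change of -5.85 (adjusted p = 0.108).

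Fibroblast markers split in direction. Ddr2 (ENSMUSG00000026674, mm10 chromosome 1, 169972307 to 170110762, minus strand), a receptor kinase for fibrillar collagen, had 228, 199 and 200 normalized reads in the border zone of mice 32, 34 and 40, against 128 and 21.2 in remote mice 40 and 43. The border zone libraries were close together and above both remote ones, with averages of 209 ± 16.4 over the border zone libraries (SD, n = 3) and 74.4 ± 75.2 over the remote ones (SD, n = 2). The log2 change was 1.97 ± 0.83 (SE, limma adjusted p = 0.245), and 0.57 with total-count scaling. Dcn, the small proteoglycan decorin, had 25.4, 27.1 and 18.8 in the border zone, below the 51.3 and 192 in remote muscle (log2 change -2.04 ± 1.01, SE, limma adjusted p = 0.305). DESeq2 called Ddr2 only without remote mouse 40 (log2 change 3.29, adjusted p = 0.0409), and without remote mouse 43 the limma log2 change was 0.71. Without remote mouse 43 the log2 change of Dcn was -1.10.

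Pdgfra, the growth factor receptor used to identify cardiac fibroblasts, had 249, 261 and 1.56 normalized reads in the border zone of mice 32, 34 and 40, against 39.3 and 6.58 in remote mice 40 and 43. Border zone mice 32 and 34 were high, and border zone mouse 40 was the lowest library of all. The log2 change of Pdgfra was 1.66 ± 1.81 (SE, limma adjusted p = 0.645), and within mouse 40 it was -3.97. Without border zone mouse 40 DESeq2 called Pdgfra (log2 change 3.47, adjusted p = 0.00206), beside 16.2% of genes in that fit. Tcf21, a transcription factor of the epicardial and fibroblast lineage, had 3.17, 88.6 and 0 in the border zone and 4.53 and 0 in remote muscle. Dpt, the matrix protein dermatopontin, had 0, 1.23 and 66.5 in the border zone and 0.755 and 37.3 in remote muscle, so its high libraries were those in which Tcf21 was at 0.

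Lum, a keratan sulfate proteoglycan, had 0, 27.1 and 3.91 normalized reads in the border zone and 9.06 and 38.0 in remote muscle. Fbln1, the matrix protein fibulin 1, had 28.5, 207 and 25.04 in the border zone and 59.6 and 95.8 in remote muscle. Mfap5, a microfibril component, had 22.2, 50.5 and 18.0 in the border zone and 70.2 and 22.7 in remote muscle. In all 3 genes the regions overlapped, and border zone mouse 34 was the highest of its region. Of the tested members, Cd3d, Cd3e and Pdgfra lay higher in both border zone mice 32 and 34 than in the other 3 libraries, as did 20.7% of all tested genes, and Pecam1, Tie1, Cd68 and C1qc lay lower in both, as did 24.9%.

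Other markers of the same cell types, from further lists, were read the same way. None of their tested genes passed in the limma and edgeR fits described above. Of the other endothelial genes 11 of the 18 tested had positive changes, with a median of 0.28, and none was called in the authors' deposited table. Those with the highest means were Robo4, a guidance receptor of vessels, at 138, 164 and 63.4 normalized reads in the border zone and 55.9 and 50.4 in remote muscle, and Ushbp1 (log2 change 0.91 ± 0.81, SE, limma adjusted p = 0.564). Of the other macrophage and myeloid genes 4 of 9 tested were positive, with a median of -0.61. The fractalkine receptor gene Cx3cr1 had 84.0, 87.4 and 87.6 in the border zone and 51.3 and 4.39 in remote muscle (log2 change 2.38 ± 1.11, SE, limma adjusted p = 0.284), and Laptm5 had 0, 66.4 and 3.13 in the border zone and 22.6 and 49.0 in remote muscle. Clec7a and the neutrophil genes S100a8, S100a9, Retnlg and Ly6g were at 0 in all libraries, whereas Csf3r, the receptor for granulocyte colony-stimulating factor, had 181, 64.0 and 3.13 in the border zone and 3.02 and 11.7 in remote muscle.

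Among the other T and B cell genes, 4 of 5 tested were positive, with a median of 0.65. Blk, a kinase of B cell receptor signaling, had 905, 1377 and 1964 normalized reads in the border zone of mice 32, 34 and 40, against 1657 and 1025 in remote mice 40 and 43, and its mean of 560 per kilobase was above that of Cd68, the highest member, while Cd79b was at 0 and Pax5 did not exceed 3.17. Ebf1 ranged from 146 to 374 in the border zone and stood at 273 and 102 in remote muscle. Of the other fibroblast genes 8 of 15 tested were positive, with a median of 0.28. The authors' deposited table called Fn1, the matrix protein fibronectin, higher (log2 1.93, adjusted p = 0.0419), with 1620, 2097 and 1256 normalized reads in the border zone and 579 and 292 in remote muscle.

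Lists for further cell types were sparse or held single calls. Of the mural genes 7 of 9 tested were positive, with a median of 0.61, and the authors' deposited table called Cspg4, the proteoglycan NG2, higher (log2 3.07, adjusted p = 0.0094). Rgs5, a pericyte regulator of G protein signaling, had 1.58, 2.46 and 48.5 in the border zone, below the 95.1 and 175 in remote muscle (log2 change -4.09 ± 1.43, SE, limma adjusted p = 0.197). Abcc9, a subunit of potassium channels, had a log2 change of -1.56 ± 0.52 (SE, limma adjusted p = 0.184). It was also abundant, with 1552, 754 and 1292 normalized reads in the border zone and 2327 and 4900 in remote muscle. Which nuclei those reads came from was not tested. Rgs5 and Abcc9 were the 2 negative genes of the tested mural ones. Of the positive ones, Pdgfrb had 192, 281 and 253 in the border zone, above the 100 and 113 in remote muscle. Myh11 had 623, 402 and 68.8 in the border zone and 77.8 and 38.0 in remote muscle (log2 change 2.23 ± 0.92, SE, limma adjusted p = 0.241). Of the erythroid genes the authors' deposited table called Alas2, the first enzyme of heme synthesis in red cells, lower (log2 -3.07, adjusted p = 0.00226), with 19.0, 25.8 and 28.2 in the border zone and 189 and 223 in remote muscle. The globin gene Hba-a1 did not follow Alas2, with 315, 367 and 14.1 in the border zone and 57.4 and 68.0 in remote muscle, and reads may be split with its near-identical copy Hba-a2. The mesothelial genes Wt1 and Msln were the 2 tested of 6, with log2 changes of 2.59 ± 1.36 and 2.37 ± 1.47 (SE, limma adjusted p = 0.329 and 0.407). Of the adipocyte genes none was tested, Cfd was at 36.5 in border zone mouse 32 and at 0 elsewhere, and Retn did not exceed 4.39.

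Transcript length moved with detection. Across the 36 members, Spearman's rho between mean normalized reads and longest transcript length was 0.54, beside 0.48 across 14889 tested genes with a length, and per kilobase it was -0.07. Genes share the same libraries, so these values only describe them. Of the 14 members with transcripts under 1500 bases, 24 of 70 library values were 0, against 11 of 110 for the 22 longer ones. The part of length in the zeros was not tested.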

How the data were processed

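RNA of PCM-1 sorted nuclei was measured in 5 libraries. The authors deposited a signal per gene, scaled by size factor. STAR, DESeq2 and mm10 are listed in the submitters' processing notes, while counting tool, annotation and strand setting are not stated there. Dividing each library by its value for 1 read gave whole numbers (within 0.01) for 100% of values, and these recovered reads were used for count models. The authors' deposited table gives a log2 fold change, p-value and adjusted p-value per gene, and DESeq2 on the recovered reads made the same 902 calls. Another deposited column of no sample gives the longest transcript length.

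The main test was limma 3.58.1 (R 4.3.3) with a mean-variance trend on log2(value + 1), group as the only term, two-sided, Benjamini-Hochberg adjusted p under 0.05, on genes with a mean of at least 10. It takes the libraries of mouse 40 as independent, and p-values measure the spread between these libraries. Alternatives were edgeR 4.0.16 (quasi-likelihood, TMM), DESeq2 1.42.0, other pseudocounts, filters and scalings, and leaving out libraries. The fits were run on simulated data with large set changes and the same dispersion for all genes, which does not show what they can detect here. Coordinates and overlaps are from GENCODE M21. Further lists held cardiomyocyte, endothelial, myeloid, neutrophil, T and B cell, fibroblast, mural, mesothelial, adipocyte, Schwann and erythroid markers. Of each, genes called in the authors' deposited table were named, or else the 2 with the highest mean. Adgre1 was not matched. Further genes named (Bcl11b, Rgs5, Abcc9, Pdgfrb, Myh11, Lck, Cd2, Cd4, Pax5, Hba-a1 and genes at 0) were chosen after their values were seen. A result covered by this rule is not reported here. Members and lists were chosen with earlier results of these data known.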

Additional observations from a re-analysis of the deposited data

How the results depend on the processing

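No paired analysis was possible because only mouse 40 gave both regions. The count of members called was 0 in each limma and edgeR fit. It was 3 with DESeq2 on all libraries and, with alternatives chosen after seeing the data, 0 to 5 without 1 library and 0 with mice 40 and 43 only, where 2.15% of genes were called. The count of all genes called was 1 with total-count scaling, cardiomyocyte scaling and quantile normalization, 902 with DESeq2, and 0 to 235 by limma without 1 library, the 235 being without border zone mouse 40. The DESeq2 fits without 1 library called 0.279% to 16.2% of genes, and the 5 members belong to the fit without border zone mouse 40, which called 16.2%.

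With total-count scaling the median log2 changes were -1.96 for endothelial, -1.83 for macrophage and leukocyte and -1.62 for fibroblast members. With cardiomyocyte scaling they were -1.95, -1.81 and -1.60. The median over all tested genes shifted by -1.37 and -1.36 with these scalings. The T and B cell median was 1.76 and 1.80, beside 1.97 in the main fit. With no filter on low values the macrophage and leukocyte median was -1.13, over 12 genes in place of 9. The T and B cell median was 4.63 with edgeR and 4.80 with DESeq2. The fibroblast median was 0.58 for genes with a mean of at least 50, which are fewer, and -1.40 with mice 40 and 43 only. The cause of these moves was not tested. Without 1 library the medians ran from -0.75 to -0.33 for endothelial, -1.06 to 0.06 for macrophage and leukocyte, 1.90 to 2.95 for T and B cell and -0.59 to 0.26 for fibroblast members.

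Of the 29 tested members, 10 kept their sign under every alternative run, namely C1qc, Cd3e, Cd79a, Csf1r, Dcn, Ddr2, Flt1, Mrc1, Ptprb and Tie1, with Cd79a at 0 where border zone mouse 34 was left out. The signs of other members turned as follows, and the cause was not tested. EdgeR gave 0.085 for Pecam1, 0.096 for Kdr, 0.36 for Tek, -0.076 for Lyz2, 0.034 for C1qb, -0.033 for Itgam, 0.25 for Cd74, 0.23 for Dpt and 0.10 for Fbln1. DESeq2 gave 0.15 for Pecam1, 0.14 for Kdr, 0.41 for Tek, -0.028 for Lyz2, 0.16 for C1qb, 0.29 for Cd74, 0.26 for Dpt and 0.16 for Fbln1. DESeq2 without border zone mouse 32 gave 0.54 for Pecam1, 0.79 for Kdr, 1.08 for Tek, 0.12 for Cd68, 0.92 for Cd74, 0.86 for Dpt and 0.65 for Fbln1. DESeq2 without border zone mouse 34 gave 0.46 for Pecam1, 0.74 for C1qb, -0.53 for Tcf21 and 0.80 for Dpt. DESeq2 without remote mouse 40 gave 0.21 for Pecam1, 0.80 for Egfl7, -0.088 for Ptprc, -0.85 for Lyz2, -0.57 for Itgam and 0.40 for Mfap5. DESeq2 without remote mouse 43 gave 0.10 for Pecam1, 1.30 for Kdr, 1.70 for Tek, 0.47 for C1qb, 3.32 for Cd74, 0.18 for Lum, 4.94 for Dpt and 0.53 for Fbln1. Mice 40 and 43 only gave 1.19 for Pecam1, 0.12 for Kdr, 0.24 for Cd68, 1.75 for Cd74, -2.77 for Pdgfra, -1.23 for Tcf21 and 3.04 for Dpt. DESeq2 with mice 40 and 43 only gave 1.24 for Pecam1, 0.29 for Cd68, 0.94 for Cd74, -3.83 for Pdgfra, -3.94 for Tcf21 and 1.86 for Dpt. Mouse 40 only gave 1.12 for Pecam1, 0.999 for Kdr, 0.20 for Cd68, 3.53 for Cd74, -0.61 for Cd3d, -3.97 for Pdgfra, -2.47 for Tcf21 and 5.27 for Dpt. Total-count scaling gave -0.95 for Cdh5, -0.32 for Vwf, -0.92 for Ptprc, -1.03 for Lyz2 and -1.25 for Itgam. Cardiomyocyte scaling gave -0.93 for Cdh5, -0.31 for Vwf, -0.91 for Ptprc, -1.01 for Lyz2 and -1.23 for Itgam. DESeq2 without border zone mouse 40 gave 0.24 for Kdr, 0.95 for Tek, 0.39 for Egfl7, -0.68 for Lyz2, 0.73 for C1qb, -0.40 for Itgam and 0.58 for Fbln1. Quantile normalization gave 0.17 for Egfl7, 1.18 for Cd74 and 0.49 for Dpt. Pseudocount 5 gave 0.19 for Cd74. Without 1 library, limma log2 changes ran from -0.96 to 0.17 for Pecam1, -0.080 to 1.37 for Cdh5, -2.71 to 0.81 for Kdr, -0.85 to 0.54 for Egfl7 and -0.13 to 0.98 for Ptprc. They ran from -0.76 to 0.061 for Cd68, -1.06 to 1.74 for Lyz2, -0.65 to 0.90 for Itgam, -1.88 to 1.74 for Cd74 and -0.20 to 3.04 for Tcf21. They ran from -2.85 to 1.60 for Dpt, -1.47 to 0.032 for Fbln1 and -1.33 to 0.26 for Mfap5.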
